A study of Mus musculus with 31 samples.

Results

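The aminoacyl-tRNA synthetases described here were 36 genes, 20 encoding cytosolic enzymes (Aars to Yars) and 16 encoding mitochondrial enzymes (names ending in 2), out of 41255 gene symbols in the deposited tables. They were taken and divided into sets by symbol, with earlier results of these data known. All 36 were listed in both the total mRNA and the polysomal RNA table. Whether a gene of the cytosolic set also supplies mitochondria was not examined. Every member passed the filter on low values, a mean of at least 10 normalized counts, in both tables. The lowest member mean was 187 in total mRNA and 184 in polysomal RNA.

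The libraries came from Ba/F3 cells, an interleukin 3 dependent mouse lymphoid line, in which isogenic clones had been made to express human RPL10, a protein of the large ribosomal subunit. All clones carried the human transgene. Per the study, the mouse Rpl10 of the cells had also been knocked down in all of them with a short hairpin RNA. WT clones 28, 29 and 36 expressed the wild-type protein and R98S clones 11, 13 and 35 the mutant form R98S, in which an arginine is replaced by serine. Messenger RNA was sequenced from whole cells (total mRNA, 9 R98S and 8 WT libraries) and from polysomes, the fraction of mRNA bound by several ribosomes (polysomal RNA, 8 R98S and 6 WT libraries), and 14 cultures had both. Libraries also carried a replicate number from 1 to 3, so that each genotype was represented by 3 clones sampled repeatedly and not by 9 or 8 separately derived lines.

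Each aminoacyl-tRNA synthetase joins an amino acid to its matching tRNAs, the step that sets which amino acid a codon is read as. Cytosolic enzymes serve the translation of nuclear-encoded mRNA, and some of them sit together in a large multi-synthetase complex held by the scaffold proteins Aimp1, Aimp2 and Eef1e1. Mitochondrial enzymes are encoded in the nucleus, imported, and charge the tRNAs that translate the few proteins of the mitochondrial genome. Many cytosolic synthetase genes are known targets of the transcription factor ATF4, which is made when amino acids are short or unfolded proteins accumulate and which binds the C/EBP-ATF response element.

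Libraries held between 8831180 and 22059792 gene-assigned reads. The place of each library between the WT and R98S means was taken over genes that passed the genotype test in its fraction. Those genes were thus chosen for that difference in these same libraries. In total mRNA, R98S clones 13 and 35 of replicate number 2 lay 62.3% and 63.9% of the way from WT to R98S, whereas the other R98S libraries lay at 96.6% to 117.1%. In polysomal RNA the same cultures lay at 105.7% and 89.3%. Of the lymphoid or pro-B markers, Ptprc, Il3ra, Csf2rb, Cd79a and Cd79b were present and Pax5, Ebf1, Vpreb1 and Igll1 stayed under 10 normalized counts in every library. The list's summed level in total mRNA was 65582 to 124756 in R98S and 33843 to 64424 in WT, most of it from Csf2rb, the common beta chain of the interleukin 3 receptor. Among markers of other cells in total mRNA, the summed T cell list (2 of 4 markers reaching 10) was 0 to 40 in R98S and 7 to 189 in WT, the erythroid list 4 to 141 and 68 to 418, the myeloid list 3 to 411 and 33 to 213, and the mast cell list, nearly all Gata2, 14242 to 25327 and 18450 to 28976. Within the mast cell list Cpa3 went the other way from the sum, at 192 to 2228 in R98S and 14.3 to 297.5 in WT. Fcer1a was at 0 to 1.8 and 0 to 16. The part of such cells in the results was not tested. In such bulk libraries, fewer cells of a type and less RNA per cell cannot be told apart. The mouse Rpl10 row, at 901 to 2984 in R98S and 620 to 5715 in WT total mRNA, does not check the human transgene.

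Expressed per kilobase of the longest annotated transcript, the cytosolic synthetases were the more abundant set in both fractions. Their median over members was 910 normalized counts per kilobase in total mRNA against 119 for the mitochondrial set, and 796 against 122 in polysomal RNA. Of the 13 pairs of members with matching symbols (Aars with Aars2 and so on), 12 had the higher per-kilobase level in the cytosolic enzyme, with a median cytosolic to mitochondrial ratio of 6.37 in total mRNA and 3.4 in polysomal RNA. The exception in both fractions was leucine, with a ratio of Lars to Lars2 of 0.0969 in total mRNA. Counts of Lars2 ran with those of the gene Mir6236, with a Pearson r of 0.996 over polysomal and 0.887 over total libraries. The origin of the reads counted for Lars2 was not tested, which limits its level and this ratio.

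Gars, the glycyl enzyme, had the highest cytosolic level in total mRNA at 2620 per kilobase, followed by Kars, the lysyl enzyme, at 2136 and Nars, the asparaginyl enzyme, at 2039. In polysomal RNA the order was Gars at 3618, Dars, the aspartyl enzyme, at 2437 and Kars at 2344. These leading levels differed by less than their spread, since Gars alone ran from 1617 to 4129 over the 17 total libraries and Kars from 1601 to 2818. Among the mitochondrial enzymes Lars2 stood at 7851 per kilobase in total mRNA, Iars2, the isoleucyl enzyme, at 349 and Rars2, the arginyl enzyme, at 287, and the remaining 13 went down to 38.2 for Ears2. In polysomal RNA Rars2 at 493.4 and Tars2, the threonyl enzyme, at 244 followed Lars2, and Iars2 was at 243. A long transcript model lowers a per-kilobase value, and that of Mars2, at 11294 bases, was the longest of the mitochondrial set.

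Of the leading members of each set, Gars, Nars, Rars2 and Tars2 are taken up with the comparisons they entered. Kars held 3872, 5505 and 6640 normalized counts (lowest, median and highest R98S library) in total mRNA against 4144, 4695 and 6817 in WT, and in polysomal RNA 4153, 5506 and 7109 against 4549, 5552 and 5894. Dars in polysomal RNA was at 2538, 4452 and 8466 in R98S and 2596, 4882 and 8546 in WT. Iars2 in total mRNA was at 1511, 2190.4 and 2500 in R98S and 1037, 1651 and 2384 in WT. In each of these the genotypes overlapped over most of their range, and none passed the test in either fraction.

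Promoter windows from RefSeq (assembly GRCm38.p6, 250 bases before to 50 after the start site) were matched by symbol for 12 cytosolic and 14 mitochondrial members. The core of the C/EBP-ATF response element, TGATGNAA on either strand, occurred in 5 of the 12 cytosolic windows (Aars, Gars, Iars, Tars and Yars) and in 0 of the 14 mitochondrial windows, against 4.51% of 27025 genes. The E-box of Myc and related factors, CACGTG, occurred in 4 cytosolic windows (Aars, Farsb, Iars and Tars) and 1 mitochondrial window (Ears2), against 8.09% of genes. The elements of Gars and Tars lay wholly upstream of the start site and are shown here because Gars was lower in R98S polysomal RNA and Tars did not pass (0.19 ± 0.21, log2, limma adjusted p = 0.688). Capitals mark the element, which is read on the strand opposite to the gene in both.
Gars, chr6:55037960-55037989, plus strand: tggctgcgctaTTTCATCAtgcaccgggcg
Tars, chr15:11399659-11399688, minus strand: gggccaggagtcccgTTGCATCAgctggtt
The element began 30 and 15 bases before the start site, respectively. A match is a stretch of letters and was not tested for binding.

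The first comparison asked whether synthetase mRNA differed in whole R98S cells. Only 1 of the 20 cytosolic members, Sars, the seryl enzyme, passed the test in total mRNA (limma, adjusted p under 0.1), and it was lower in R98S. Over all 11133 genes tested 30.3% passed, 15.8% in the lower direction. Fold changes over the 20 members had a median of -0.14 on the log2 scale and 12 were below 0, against a median of 0.00 and 49.6% below 0 over all genes.

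Sars was at 2740, 3628 and 4904 normalized counts (lowest, median and highest R98S library) and at 3842, 5216 and 8644 in WT. The groups overlapped, although 7 of the 9 R98S libraries lay below every WT library. The difference was -0.63 ± 0.15 (log2, SE, R98S minus WT, n = 9 and 8, limma adjusted p = 0.00617). It passed when any single library was left out, and not without replicate number 3 (limma adjusted p = 0.160).

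Same-numbered libraries of both genotypes deviated together, and with the replicate number as a term in the fit 7 cytosolic members passed, all lower in R98S, beside 38.4% of all genes (19.9% lower). The added ones were Gars, Iars (isoleucyl), Lars (leucyl), Nars, Vars (valyl) and Yars (tyrosyl). Yars was at 1334, 1934 and 2771 in R98S and at 1274, 2856 and 3362 in WT, with like lowest libraries but 5 of the 8 WT libraries above every R98S library. Its difference was -0.40 ± 0.21 without the term (limma adjusted p = 0.184) and -0.45 ± 0.14 with it (adjusted p = 0.0238). Gars was at 3848, 5054 and 8098 in R98S and at 3879, 6792 and 9827 in WT, and its difference with the term was -0.34 ± 0.12 (limma adjusted p = 0.0316).

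The other additions were of like size and also had groups that overlapped over most of their range. Iars ran at 1881, 2866 and 4048 in R98S and 1915, 3784 and 4750.1 in WT, a difference with the term of -0.37 ± 0.15 (limma adjusted p = 0.0735). Lars ran at 1907, 2434 and 3795 in R98S and 1788, 4026 and 4520 in WT, with -0.33 ± 0.14 (limma adjusted p = 0.0763). Their medians stood apart where their lowest libraries did not. Nars ran at 3180.1, 4188 and 7741 in R98S and 2729, 7007 and 9122 in WT, with -0.36 ± 0.16 (limma adjusted p = 0.0935). Vars ran at 4972, 6974 and 8381 in R98S and 5647, 7548 and 9533 in WT, with -0.18 ± 0.08 (limma adjusted p = 0.0925). Of the 8 members held in the multi-synthetase complex, Iars and Lars passed with the term and 0 without it, and of the 12 outside it 5 and 1 passed.

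The mitochondrial set had its median on the other side of 0 in total mRNA. Of its 16 members 5 passed, with and without the replicate term, and 4 of these were higher in R98S: Ears2 (glutamyl), Nars2 (asparaginyl), Rars2 and Yars2 (tyrosyl). Cars2, the cysteinyl enzyme, was lower. The share of members that passed, 31.2%, lay near the 30.3% of all genes, and 4 of 16 higher stood against 14.5% of all genes, or 18.5% with the term. Fold changes of the 16 had a median of 0.18 (log2) and 12 were above 0.

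Nars2 was at 309, 331 and 496 normalized counts in R98S and at 219, 263 and 313 in WT. Its groups barely met, with 8 of the 9 R98S libraries above every WT library, and the difference was 0.45 ± 0.11 (log2, limma adjusted p = 0.00669). Rars2 was at 531, 609 and 845 in R98S and at 245, 425 and 619 in WT, a difference of 0.60 ± 0.15 (limma adjusted p = 0.00683). Its 4 highest R98S libraries exceeded every WT library. Of all 36 members, 0 had groups free of overlap in total mRNA, beside 3.53% of all genes. Cars2 was at 197, 254 and 347 in R98S and at 260.0, 329 and 432 in WT, with 7 of 9 R98S libraries below every WT library and a difference of -0.36 ± 0.12 (limma adjusted p = 0.0402). Leaving out clone R98S 11, R98S 35, WT 28 or WT 29 ended the call of Cars2 (limma adjusted p = 0.121 to 0.176), as did a test of clone means.

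Ears2 and Yars2 passed by a smaller margin. Ears2 was at 158, 239.8 and 277.8 in R98S and at 77.2, 143 and 249 in WT, a difference of 0.65 ± 0.23 (limma adjusted p = 0.0501). Yars2 was at 329, 379 and 438 in R98S and at 182, 252 and 489 in WT, a difference of 0.43 ± 0.17 (limma adjusted p = 0.0688), and its highest library was a WT one. Leaving out WT clone 36 of number 2, or WT clone 28 or 29 of number 3, ended the call of Ears2 (limma adjusted p = 0.101 to 0.104), and those 3 libraries, R98S clone 11 of number 1 and WT clone 28 of number 2 each ended that of Yars2 (0.116 to 0.138). Among clones, leaving out R98S 11 ended the call of Ears2 (limma adjusted p = 0.235), and leaving out any but WT 29 that of Yars2 (0.102 to 0.198). Without replicate number 3, Rars2 alone of the 5 passed (limma adjusted p = 0.0601). Parts of the exons of Cars2 and Nars2 overlap genes on the other strand (5.83% and 4.08% of their exonic bases), and the strand setting of the counting is not given in the sources used here.

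**Figure D1:**
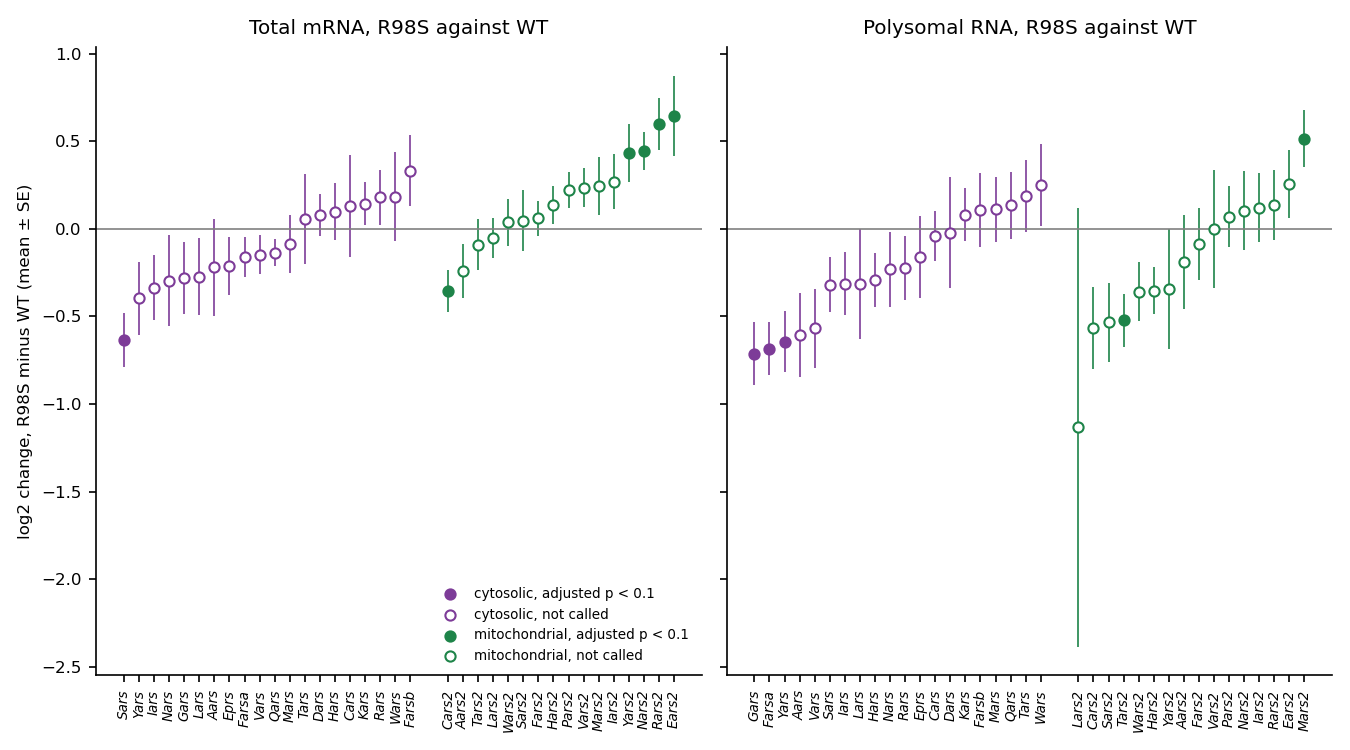
Log2 change between R98S and WT (mean ± SE, y axis) for each of the 36 synthetases (x axis, ordered within set by the change), in total mRNA on the left and polysomal RNA on the right; filled points passed the limma test at adjusted p under 0.1. In total mRNA Sars alone of the cytosolic members is filled, and 4 of the 5 filled mitochondrial members lie above 0; in polysomal RNA the filled cytosolic members Gars, Farsa and Yars lie between -0.71 and -0.64, and the bar of Lars2 is the longest.

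The replicate numbers differed in the level of the whole cytosolic set. The summed level of the 20 cytosolic members in WT total mRNA was 86982 to 96494 normalized counts in number 1, 50451 to 63083 in number 2 and 84823 to 89068 in number 3. In R98S it was 77267 to 89333, 52115 to 66801 and 53421 to 75019. WT libraries of number 2 were thus lower than those of numbers 1 and 3, whereas R98S libraries of both numbers 2 and 3 were low, and the genotypes stood apart without overlap in number 3 alone. The labels do not say what a replicate number marks.

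Fold changes within each number followed these sums. Over the 20 cytosolic members the median difference in total mRNA was -0.10 in number 1, 0.08 in number 2 and -0.46 in number 3 (log2, R98S minus WT), with 13, 5 and 14 members lower. Lars illustrated the pattern, with R98S libraries at 3506 to 3795 against 4026 to 4285 in WT in number 1, 1913 to 2434 against 1788 to 2285 in number 2 and 1907 to 3051 against 4026 to 4520 in number 3. The genotypes overlapped in number 2 only. Sars differed by -0.25, -0.53 and -1.08 in the 3 numbers. Tested within number 3 alone, 6 cytosolic members passed, all lower (Aars, Iars, Lars, Nars, Sars and Yars), while Farsa passed in number 1 and 0 in number 2. Over all genes 9.4% passed within number 3, 12.3% within number 1 and 2.16% within number 2.

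The difference between numbers was itself tested as a genotype by replicate number term, chosen after these values were seen. In total mRNA 0 of 36 members and 0.0% of all genes passed (limma F test, smallest member adjusted p = 0.934). At an unadjusted p under 0.05 the term reached 10 of 36 members (Aars, Farsa, Iars, Lars, Nars, Sars, Tars, Wars, Yars and Fars2) beside 480 genes or 4.31% of all. In polysomal RNA it reached Eprs and Vars, beside 5.56% of all genes, with 0.028% of all genes and 0 members passing after adjustment (smallest member adjusted p = 0.824).

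Without Lars2 the summed level of the mitochondrial set in total mRNA was 8416 to 8703 in WT number 1, 6518 to 7212 in number 2 and 5703 to 8904 in number 3. In R98S it was 7328 to 9048, 7330.0 to 8712 and 7215 to 8523. WT libraries of number 2 lay below those of number 1, as in the cytosolic set, whereas the R98S ranges overlapped throughout and the genotypes overlapped in number 3. The median difference of the mitochondrial members was -0.04, 0.22 and 0.28 in the 3 numbers.

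**Figure D2:**
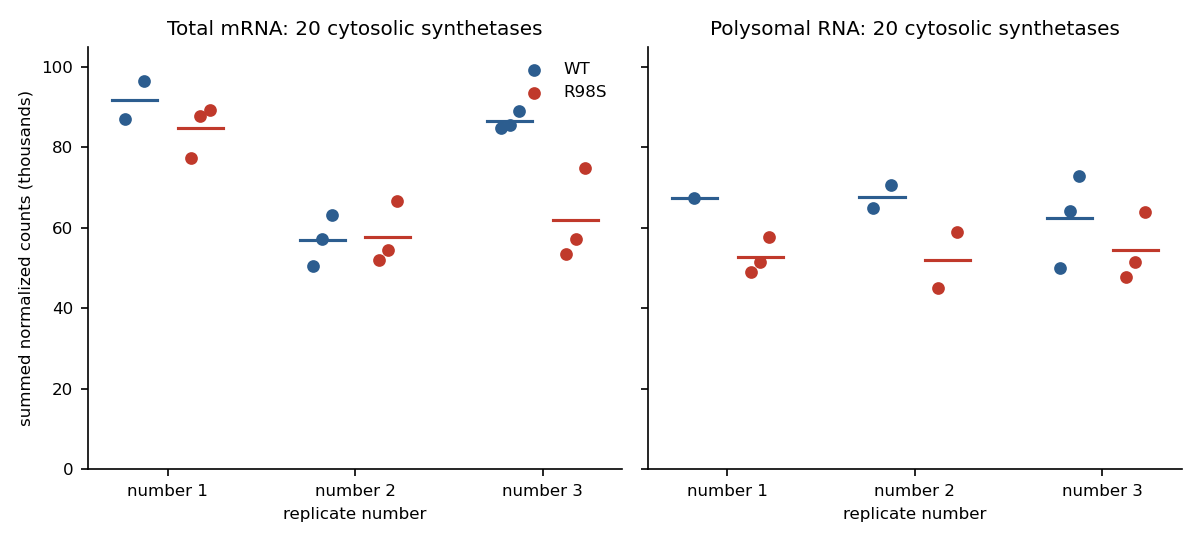
Summed normalized counts of the 20 cytosolic synthetases (y axis, from 0) in each library by replicate number (x axis), in total mRNA on the left and polysomal RNA on the right; points are libraries, blue WT and red R98S, and lines are means. In total mRNA WT and R98S overlap in number 2, near 50451 to 66801, and stand apart in number 3; in polysomal RNA the R98S libraries of numbers 1 and 2 lie below the WT ones.

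The second comparison asked whether the mRNA carried by polysomes differed. In polysomal RNA 3 cytosolic members passed, all lower in R98S: Gars, Farsa, the catalytic subunit of the phenylalanyl enzyme, and Yars. This was 15.0% of the set, beside 13.5% of all 10707 genes tested and 5.87% in the lower direction. The 20 members had a median difference of -0.23 (log2) and 14 were below 0, against a median of -0.02 and 52.3% over all genes.

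Gars was at 5003, 6749 and 8356 normalized counts in R98S polysomes and at 8456, 10279.8 and 15567 in WT. Farsa was at 1750.4, 2008 and 2152 in R98S and at 2495, 2949 and 4783 in WT. Neither gene's groups overlapped, which held for 4.96% of all genes. The differences were -0.71 ± 0.18 for Gars (log2, n = 8 and 6, limma adjusted p = 0.0182) and -0.68 ± 0.15 for Farsa (limma adjusted p = 0.00819).

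Farsb, which encodes the other subunit of the phenylalanyl enzyme, did not pass, at 0.11 ± 0.21 (limma adjusted p = 0.850), and the difference between the subunits was not tested. Yars was at 1427, 1807 and 2598 in R98S polysomes and at 2322, 3110.2 and 3543 in WT, with 6 of the 8 R98S libraries below every WT library and a difference of -0.64 ± 0.18 (limma adjusted p = 0.0286). All 3 passed when any single library was left out. Gars no longer passed without clone R98S 35 (limma adjusted p = 0.136), nor Yars without clone R98S 11, R98S 35 or WT 29 (0.106 to 0.144), and without replicate number 1 Farsa alone did (limma adjusted p = 0.0912). In a test of clone means Farsa and Yars passed and Gars did not, beside 7.01% of all genes. With quantile normalization Farsa and Gars passed and Yars did not, beside 13.1%.

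With the replicate term Aars (alanyl), Sars and Vars passed as well, 6 of 20 and all lower, beside 30.9% of all genes. Aars was at 1647, 2128 and 3139 in R98S polysomes and at 1824, 3289 and 5905 in WT, a difference of -0.66 ± 0.18 with the term (limma adjusted p = 0.0140) and -0.61 ± 0.24 without it (0.141). Vars was at 2070.0, 2834 and 3152 in R98S and at 2355, 3581 and 7256 in WT, with -0.59 ± 0.15 under the term (limma adjusted p = 0.00990). Sars was at 2796, 3678 and 4135 in R98S and at 3270, 4379 and 5788 in WT, with -0.36 ± 0.14 (limma adjusted p = 0.0667). The R98S libraries of each lay at the low end of a range that the genotypes shared. Part of the Aars exons, 14.29% of their bases, overlaps Exosc6 on the same strand.

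All 6 lay outside the multi-synthetase complex, in which 0 of 8 members passed in polysomal RNA with or without the term (smallest limma adjusted p = 0.348 without it and 0.124 with it). Without replicate number 3, however, the complex members Eprs, Iars and Lars passed, all lower (limma adjusted p = 0.0306, 0.0338 and 0.0143, beside 19.0% of all genes), and Iars passed with the term and a GC correction. The difference between the members in and out of the complex was not tested. The complex members had a median difference of -0.09 and the 12 others of -0.31.

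Of the mitochondrial members, 2 passed in polysomal RNA, in opposite directions, which was 12.5% of the set beside 13.5% of all genes, with 7.66% higher and 5.87% lower. Tars2 was at 574, 751 and 811 normalized counts in R98S and at 797, 1035 and 1385 in WT, with 6 of 8 R98S libraries below every WT library and a difference of -0.52 ± 0.15 (log2, limma adjusted p = 0.0391). Mars2, the methionyl enzyme, was at 487, 711 and 919 in R98S and at 394, 453 and 605 in WT, with 6 R98S libraries above every WT library and a difference of 0.52 ± 0.16 (limma adjusted p = 0.0562). Leaving out R98S clone 11 of number 1 or any of the 3 WT libraries of number 3 ended the call of Mars2 (limma adjusted p = 0.103 to 0.116), and without replicate number 1 or number 2 neither gene passed. Among clones, leaving out R98S 35 or WT 28 ended the call of Tars2 (limma adjusted p = 0.131 to 0.229), and leaving out R98S 11, R98S 13, WT 28 or WT 36 that of Mars2 (0.103 to 0.198).

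With the replicate term 6 mitochondrial members passed, 5 of them lower, which was 37.5% of the set beside 30.9% of all genes (15.2% higher and 15.7% lower). Hars2, the histidyl enzyme, was at 275, 347 and 414 in R98S and at 412, 439.7 and 467 in WT, 7 of 8 R98S libraries below every WT one, with -0.37 ± 0.12 (limma adjusted p = 0.0356). Sars2 was at 123.1, 179 and 236 in R98S and at 164, 236 and 463 in WT, with -0.57 ± 0.17 (limma adjusted p = 0.0190). Cars2 was at 229.6, 301 and 518 in R98S and at 283, 506 and 684 in WT, with -0.45 ± 0.14 (limma adjusted p = 0.0282). For these the WT ranges reached higher than the R98S ranges, and apart from Hars2 they overlapped widely. Wars2, the tryptophanyl enzyme, was at 163, 185 and 264 in R98S and at 171, 257 and 318 in WT, with -0.41 ± 0.16 (limma adjusted p = 0.0720). Part of the Hars2 exons, 4.56% of their bases, overlaps a gene on the other strand.

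Of the 4 mitochondrial members that were higher in R98S total mRNA, 0 passed in polysomal RNA with or without the term. Rars2 in polysomes was at 746, 838 and 1438 in R98S and 611, 812 and 1223 in WT, and the ranges nearly coincided. Its polysomal difference was 0.14 ± 0.20 (limma adjusted p = 0.780). The polysomal differences of Nars2, Ears2 and Yars2 were 0.10 ± 0.23, 0.26 ± 0.19 and -0.34 ± 0.34. The change between fractions, tested as TE, passed for 0 of these 4.

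**Figure D3:**
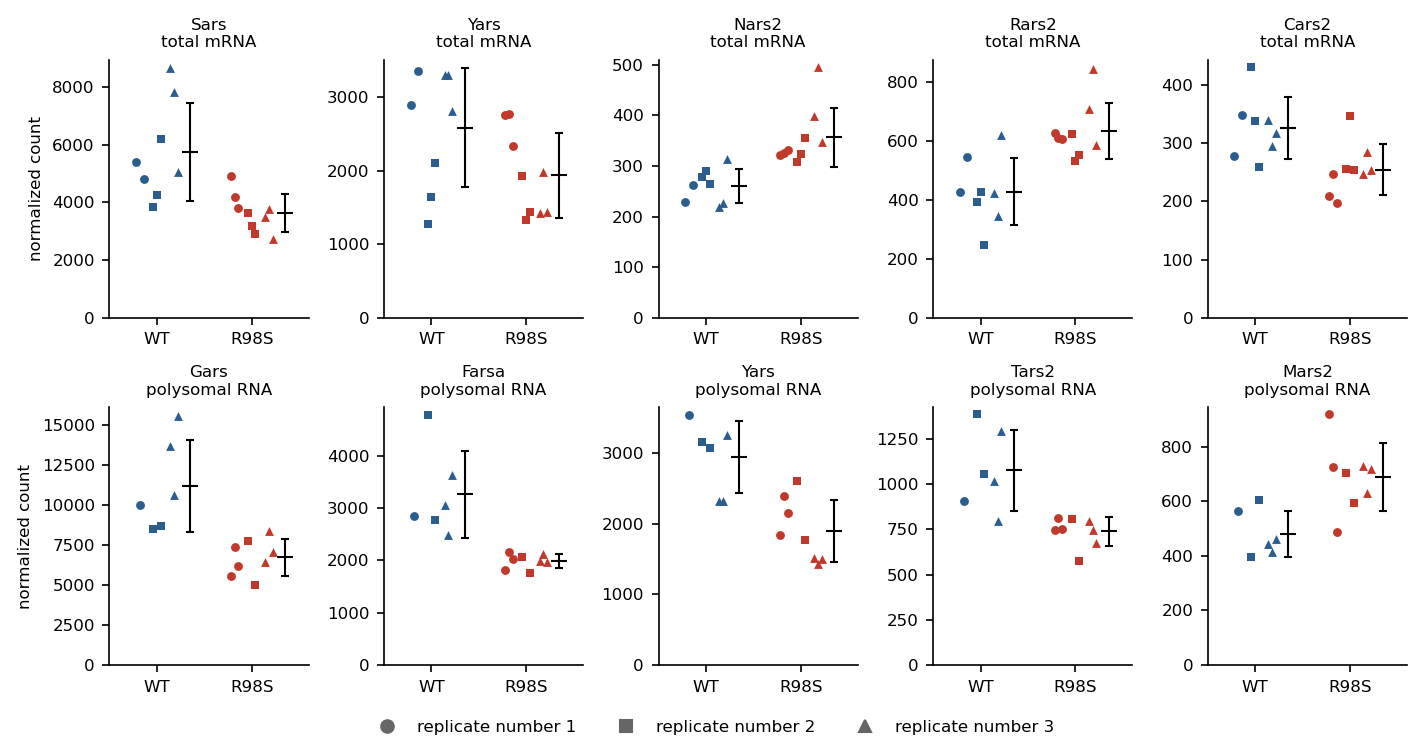
Normalized counts (y axis, from 0) of 5 synthetases in total mRNA (top) and 5 in polysomal RNA (bottom) by genotype (x axis); points are libraries, shaped by replicate number, and black bars are mean ± SD. All 8 R98S libraries of Gars and of Farsa in polysomal RNA lie below all 6 WT libraries, and 8 of the 9 R98S libraries of Nars2 in total mRNA lie above all 8 WT libraries.

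Lars2, the mitochondrial leucyl enzyme, had the highest mean level of the set in both fractions and, in polysomal RNA, the widest range, although the origin of its reads was not tested. In total mRNA it was at 24771, 29293 and 35783 normalized counts in R98S and 24257, 31774 and 39411 in WT, a 1.62-fold range over all libraries. In polysomal RNA it was at 1422, 6655 and 137009 in R98S and 1832, 45111 and 151046 in WT, a 106-fold range, where the other 35 members ranged by 1.53-fold to 4.78-fold. The widest spread lay between replicate numbers. In number 3 all 6 libraries lay at 43655 to 151046, and in numbers 1 and 2 all 8 lay at 1422 to 10238. Within number 2 the genotypes stood apart, at 1424 and 2366 in R98S against 4742 and 6895 in WT. Tested there alone, Lars2 passed (-1.64 ± 0.34, log2, limma adjusted p = 0.0434), beside 3.0% of all genes. The difference was 0.95 in number 1, with a single WT library, and -0.58 in number 3. Over all polysomal libraries the difference between genotypes was -1.13 ± 1.25 (log2, limma adjusted p = 0.695), and -0.55 ± 0.43 with the replicate term (limma adjusted p = 0.3804).

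**Figure D4:**
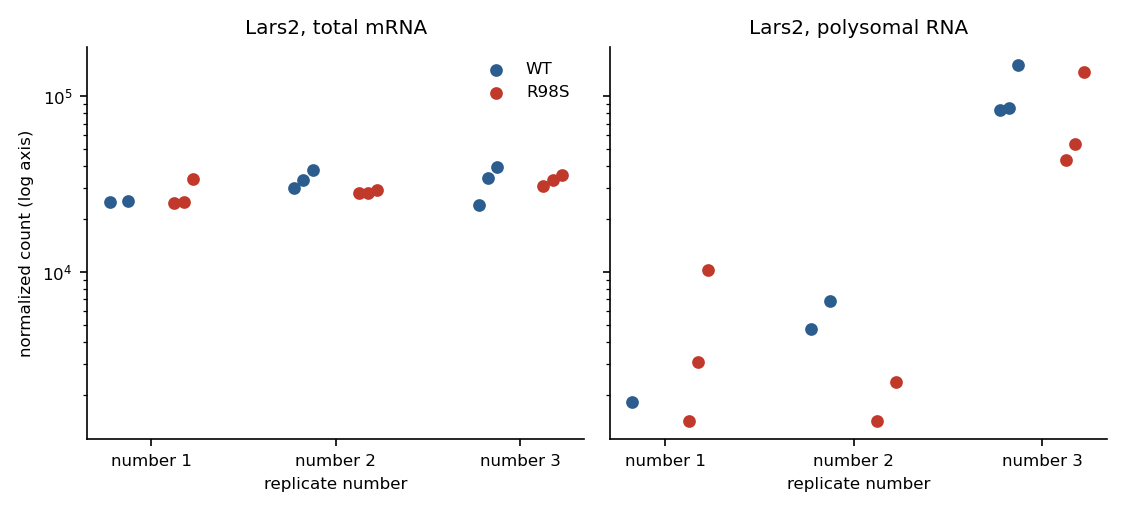
Normalized counts of Lars2 (y axis, log axis) in each library by replicate number (x axis), in total mRNA on the left and polysomal RNA on the right; points are libraries, blue WT and red R98S. In total mRNA all points lie between 24257 and 39411, whereas in polysomal RNA the 6 libraries of number 3, of both genotypes, lie above the 8 libraries of numbers 1 and 2.

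The third comparison took the ratio of polysomal to total mRNA in each of the 14 cultures, here called translational efficiency (TE) and expressed as log2 polysomal minus log2 total. As each fraction was normalized separately, its zero is arbitrary, and levels of TE are comparable between libraries and between genes but not as a share of bound mRNA. Low median TE values were those of Lars, at -2.28 in R98S and -2.61 in WT, and of Eprs, the glutamyl-prolyl enzyme, at -1.78 and -2.18. Both belong to the complex, but so does Dars, at 0.39 and 0.84, and Vars, outside it, was at -1.40 and -1.15. The median of Lars2 was -2.37 in R98S and -0.53 in WT, over single cultures from -4.30 to 2.14. The median member was at -0.30 in R98S and -0.18 in WT for the cytosolic set, and at -0.13 and 0.14 for the mitochondrial set.

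No synthetase passed the test for TE: limma called 0 of 20 cytosolic and 0 of 16 mitochondrial members, with or without the replicate term, where 5 of 10627 genes (0.047%) passed without it and 0.433% with it (0.367% higher and 0.0659% lower). At an unadjusted p under 0.05, 1 cytosolic and 3 mitochondrial members were found without the term, and 3 and 3 with it. The smallest adjusted p values were those of Farsa, with a TE difference of -0.53 ± 0.17 (log2, limma adjusted p = 0.555), and Hars2, with -0.46 ± 0.17 (limma adjusted p = 0.664). Farsa TE ran from -0.36 to 0.72 in WT, with a median of 0.27, and had a median of -0.35 in R98S, so that the groups overlapped. The same held for all 36 members, beside 0.169% of genes whose TE groups did not overlap. Without WT clone 29 of number 1 Farsa passed for TE (limma adjusted p = 0.0913). In that fit 109 genes or 1.03% of all passed as well, 51 of them lower.

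Differences of the mitochondrial members lay mostly below 0, 15 of 16 with a median of -0.31 (log2), where 49.3% of all genes lay below 0. The cytosolic set was split, with 12 of 20 below 0 and a median of -0.05. Neither pattern held in every replicate number. The mitochondrial median was 0.21 in number 1, where 13 of 16 members were higher and WT had a single culture, and -0.24 and -0.46 in numbers 2 and 3. The cytosolic median was -0.23, -0.34 and 0.38, with 14 of 20 members higher in number 3, in which the R98S total mRNA sums had been the lower.

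**Figure D5:**
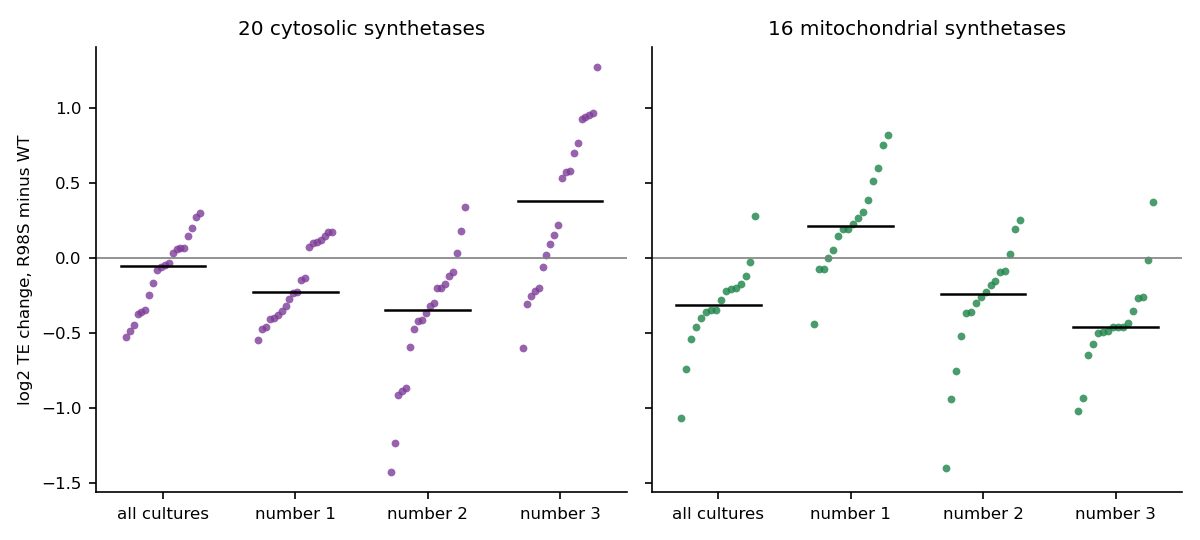
Log2 change in TE between R98S and WT (y axis) for each cytosolic (left) and mitochondrial (right) synthetase, from the fit over all 14 cultures and as the difference of means within each replicate number (x axis); points are genes and lines are medians. The cytosolic median is below 0 in numbers 1 and 2 and 0.38 in number 3, and the mitochondrial median is 0.21 in number 1 and below 0 in numbers 2 and 3.

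Genes that work beside the synthetases were followed as a list of 14, comprising complex scaffolds, tRNA editing enzymes, the selenocysteine and glutamine routes and the tRNA exporter. In total mRNA 4 of 14 passed, beside 30.3% of all genes. Aimp1, a scaffold of the complex, differed by -0.40 ± 0.10 on the log2 scale (limma adjusted p = 0.00769), and Sepsecs, which makes selenocysteinyl-tRNA, differed by -0.21 ± 0.09 (0.0899). Prorsd1, a member of the prolyl-tRNA editing family, was higher by 0.46 ± 0.15 (limma adjusted p = 0.0372) and Pstk, the kinase that acts before Sepsecs, by 0.43 ± 0.12 (0.0165). The Pstk exons overlap another gene over 58.8% of their bases. With the replicate term Dtd1, a D-aminoacyl-tRNA deacylase (0.30 ± 0.13, limma adjusted p = 0.0949), and Qrsl1, a subunit of the mitochondrial glutamyl-tRNA amidotransferase (-0.21 ± 0.09, 0.0959), passed too.

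In polysomal RNA 0 of the 13 partners tested passed without the replicate term (smallest limma adjusted p = 0.102, 2 at an unadjusted p under 0.05) and 4 with it, all lower, which was 30.8% beside 30.9% of all genes. These were Xpot, the exporter of tRNA from the nucleus (-0.49 ± 0.12, limma adjusted p = 0.00937), Aimp1 (-0.40 ± 0.14, 0.0527) and 2 subunits of the glutamyl-tRNA amidotransferase, Gatb (-0.44 ± 0.16, 0.0549) and Qrsl1 (-0.31 ± 0.12, 0.0680). For TE 0 of 13 passed.

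Targets of ATF4 that are not synthetases, and Atf4 itself, were followed as a list of 26, chosen with earlier results of these data known. Atf4 did not pass, at -0.11 ± 0.28 in total mRNA (log2, limma adjusted p = 0.823) and -0.18 ± 0.25 in polysomal RNA (0.767). Of the list, 21 genes were tested, and those that passed were lower in R98S in both fractions. In total mRNA 7 passed, all lower, which was 33.3% beside 30.3% of all genes (15.8% lower), with a median difference of -0.56 over the list. With the replicate term 12 passed, 57.1% beside 38.4% (19.9% lower). In polysomal RNA 8 passed, all lower, which was 38.1% beside 13.5% of all genes (5.87% lower), with a median of -0.60, and 12 passed with the term, 57.1% beside 30.9% (15.7% lower). Gpt2, a mitochondrial alanine transaminase, differed by -1.11 ± 0.27 in total mRNA (limma adjusted p = 0.00634) and -1.20 ± 0.19 in polysomal RNA (limma adjusted p = 0.000460). Atf5, itself a stress-induced transcription factor, differed by -1.59 ± 0.40 and -1.24 ± 0.19. For TE 0 of 21 passed, with a median of -0.02. The cytosolic synthetases that passed were lower as well, and a link between the lists was not tested.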

How the data were processed

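The study's 31 libraries were made with a stranded mRNA kit from total and polysomal RNA of the Ba/F3 clones. Per the submitters' processing notes, the authors aligned reads to GRCm38 (mm10) with TopHat2 2.0.11 and Bowtie2, used SAMtools, counted with HTSeq and normalized with DESeq2. The strand setting and annotation release are not given in the sources used here. The deposited values were treated as a signal, that is, size-factor normalized counts per gene. Whole read counts could be recovered from the deposited normalized counts for 100.0% of values (within 0.05 of a whole number). The study left out a total library of WT clone 36, number 1, because it grouped with the R98S samples in a principal component analysis. That library was not analysed here. The total mRNA comparisons therefore lack a WT library that was dropped for its likeness to R98S.

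Members and lists were chosen with earlier results of these data known. Groups came from the labels. The test was limma 3.58.1 (R 4.3.3, trend, two-sided) on log2(value + 1) of genes with a mean of at least 10, with Benjamini-Hochberg adjustment over all genes and calls at adjusted p under 0.1. TE was tested likewise on per-culture differences of log2 values. Fold changes are on that log2 scale. Same-numbered R98S and WT libraries deviated together over genes (r = 0.48 to 0.62 in total mRNA, 0.67 to 0.87 in polysomal RNA and 0.54 to 0.81 for TE), although in polysomal RNA numbers 1 and 2 also correlated with each other (0.74 and 0.77). The fit with the replicate number as a block is therefore given where it changed a call. Libraries of 1 clone are not independent lines, so p-values measure the spread between libraries of 3 clones per genotype. R98S clone 13 of numbers 1 and 2 in polysomal RNA was the closest pair (4.56 chi-square per gene, against 21.9 to 32.8 for the closest pairs of the other groups), above sampling noise, and both were kept. The fits were tested on simulated data. Alternatives were edgeR 4.0.16, DESeq2 1.42.0, other scalings and filters, GC correction, clone means, single replicate numbers and leaving out libraries, clones or numbers.

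Full values are given for members called in any comparison with or without the block and for the 3 highest per kilobase in each set, every called partner is named, and at most 3 ATF4 targets are named per comparison. Members were annotated with GENCODE M21. Python 3.11.15, pandas 2.3.3 and numpy 2.4.6 were used. No columns of the authors' own comparisons were used, and 0 columns of samples lay unused. Some items are not reported here.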

Additional observations from a re-analysis of the deposited data

Results flagged for a closer look

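Of 216 groups of member values in which the highest and lowest library could be checked with Dixon's test, 8 held a library far from the rest. Chance gives about 1 in 20 such groups. Wars2 in total mRNA was at 273 normalized counts in R98S clone 11 of number 2, against 187 to 225 in the other 8 R98S libraries. In polysomal RNA, Wars2 was at 264 in R98S clone 11 of number 1, against 163 to 197 in the other 7. R98S clone 13 of number 3 held the highest polysomal value of both Eprs, 2707 against 1281 to 1787, and Lars, 1137 against 375 to 614. Sars was lowest in R98S clone 35 of number 2, at 2796 against 3511 to 4135, and Kars was lowest in WT clone 29 of number 3, at 4549 against 5375 to 5894 in the other 5 WT libraries. TE of Rars was -0.19 in WT clone 29 of number 1, against 0.28 to 0.44, and TE of Pars2 was 0.49 in WT clone 28 of number 2, against -0.35 to -0.09.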

How the results depend on the processing

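Values were recomputed for the members called with or without the replicate block, in the fraction of the call. Members not called also changed sign, as Vars2 in polysomal RNA did in 12 of 14 alternatives and Dars in 7. Of the 876 values for called members, 731 kept direction and side of the threshold and 77 kept direction but no longer passed. A further 62 passed only under the alternative, and 6 changed sign, all in total mRNA and none passing. These were Yars2 at -0.064 within number 1 alone (limma adjusted p = 0.874), Iars at 0.004, Lars at 0.104 and Nars at 0.046 within number 2 alone, and Lars at 0.072 and Nars at 0.101 without number 3, where leaving out libraries, clones or numbers gave -0.531 to 0.072 for Lars and -0.541 to 0.101 for Nars. Members called in total mRNA (1 cytosolic, 5 mitochondrial) numbered 7 and 5 with the replicate block, 7 cytosolic with the block and a GC correction, 4 cytosolic with clone means, 0 cytosolic and 0 mitochondrial within number 2, 6 and 0 within number 3, and 1 mitochondrial within number 1. In the same order, 38.4%, 39.9%, 28.1%, 2.16%, 9.4% and 12.3% of all genes passed. Without R98S clones 13 and 35 of number 2, 2 cytosolic (Sars lower, Farsb higher) and 7 mitochondrial members passed, beside 34.2% of all genes. Members called in polysomal RNA (3 and 2) numbered 6 and 6 with the replicate block, and 8 and 6 with the block and GC correction. They numbered 5 and 4 with DESeq2, 5 cytosolic with edgeR, 2 and 4 with quantile normalization, and 2 and 0 with clone means. Within numbers 2 and 3, 1 and 4 mitochondrial members passed. In the same order, 30.9%, 35.9%, 17.8%, 13.5%, 13.1%, 7.01%, 3.0% and 20.9% of all genes passed. Leaving out a library, clone or replicate number gave 0 to 5 cytosolic and 1 to 7 mitochondrial calls in total mRNA, 1 to 9 and 0 to 3 in polysomal RNA, and 0 to 1 and 0 to 0 for TE. Without WT clone 28 of number 2, Iars and Yars also passed in total mRNA (limma adjusted p = 0.0600 and 0.0546), beside 27.6% of all genes. Without WT clone 29 of number 3, Aars, Vars and Sars2 passed in polysomal RNA (limma adjusted p = 0.0443, 0.0521 and 0.0929), beside 12% of all genes. The block changed no member's call beyond those given with the comparisons. Over all genes, calls in polysomal RNA went from 1449 to 3307 with the block, 3805 with the block and GC correction, 751 with clone means and 608 without number 1, and in total mRNA from 3369 to 1338 without number 3. The causes were not tested. Polysomal RNA and TE within number 1 had a single WT culture and were not tested. A single replicate number holds 2 or 3 libraries a genotype, which limits what those fits can detect.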

Other observations

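The genes whose polysomal pattern was most like that of Lars2, chosen after values were seen, were Mir6236, Gm15662 and Dynlt1f, with a Pearson r over the 14 polysomal libraries of 0.996, 0.991 and 0.987. Over the 17 total libraries r was 0.887, 0.222 and 0.113. These values are a description: the libraries share their replicate numbers, and those of number 3 stand apart from the rest. Mir6236 was at 453 to 1779 normalized counts in polysomal libraries of number 3 and at 10.8 to 129 in those of numbers 1 and 2.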
